A study of Mus musculus with 12 samples.

Results

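PRRC2B is a human gene on the + strand of chromosome 9, and its gene body was taken here as chr9:131373636-131500197 of hg38, a length of 126562 nt. The deposited list of human RbFox1 eCLIP peaks held 74 peaks on the + strand that overlap this interval, of 24831 human peaks in all. Of the 74, 54 formed a run at chr9:131488591-131491410, with no more than 500 nt between neighbouring peaks, and 20 lay in the rest of the gene. The gene was chosen because this run had more peaks than any other group of the list, so the number of peaks, their spacing and their enrichment are given as a description and none of them was tested.

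In eCLIP, cells are exposed to ultraviolet light, a protein is pulled down with an antibody, and the RNA fragments fixed to it are sequenced. It was carried out in T-REx-293 cells, a derivative of the human embryonic kidney line HEK293 that here makes RbFox1 only after doxycycline is given. All values for PRRC2B compare 2 immunoprecipitated (IP) libraries of clone 77-5 given doxycycline at 0.5 mg/ml for 48 h (+Dox) with 2 IP libraries of the untreated clone (No Dox). The dose is that of the sample labels, and the legends of the study give it in micrograms. Both conditions come from 1 clone, and both carry the mouse TrkB-BAC minigene with its wild-type Cluster 1 and Cluster 2 and its synthetic CAG promoter. The 2 +Dox libraries of line 32-1, which carries the minigene with Cluster 1 and Cluster 2 deleted, did not enter the human list, and the labels did not tie the 6 input libraries to a line or treatment. The lists hold peaks and no expression values, so neither the identity of the cells nor the induction of RbFox1 was checked against its own RNA.

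RbFox proteins bind RNA through a single RNA recognition motif, and the sequence (U)GCAUG is their best known site. In introns, binding downstream of an alternative exon is known to favour its inclusion and binding upstream to favour skipping, while binding in 3′UTRs is known to affect the stability and translation of mRNAs. PRRC2B encodes a large proline-rich coiled-coil protein that binds RNA, takes part in translation initiation and has the paralogues PRRC2A and PRRC2C. The sequence under the peaks and the exon and intron borders of PRRC2B were not used here, so each peak is given by its position and not by motif, exon, intron or UTR.

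Each peak has 1 log2 fold enrichment, the log2 ratio of normalized reads in the +Dox over the No Dox IP libraries, and 1 −log10 p from the authors' test on read counts. Both are the authors' values over their merged replicates. The read depth and the spread between the 2 libraries of a condition are therefore unknown, and no difference between peaks could be set against replicate error. The comparison is between IP libraries, so more reads from a change in PRRC2B RNA and more reads from a change in crosslinking cannot be told apart.

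RbFox1 peaks lay in the 3′ part of PRRC2B. The first peak started 65879 nt from the start of the gene body, at 52.1% of its length, and 0 of the 74 peaks lay in the 5′ part before the midpoint. The run started 115.0 kb from the gene start and ended 8787 nt before the gene end, between 90.8% and 93.1% of the gene. It took up 2.23% of the gene body and held 73.0% of its peaks. The run had 19.1 peaks per kb and the rest of the gene 0.162 peaks per kb, a ratio of 118. The ratio was 49.4 when peaks that abut were joined and 366 among peaks with a log2 value of 4 or more and a p no higher than 1e-05.

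**Figure D1:**
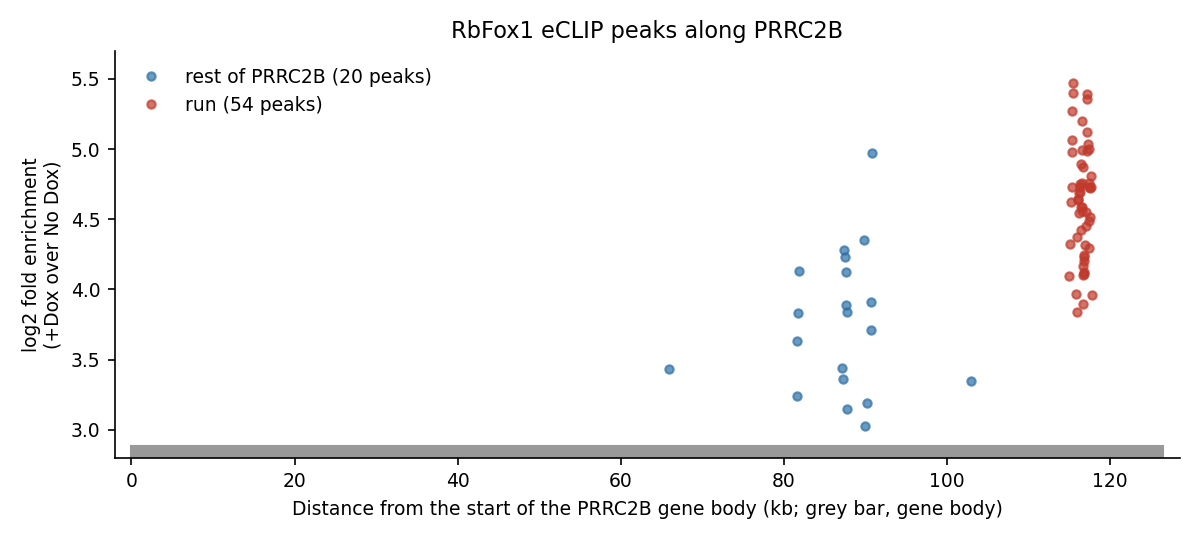
Log2 fold enrichment (+Dox over No Dox, vertical axis) of each of the 74 PRRC2B peaks against the distance of its start from the start of the gene body in kb (horizontal axis). Blue points are the 20 peaks in the rest of the gene and red points the 54 peaks of the run, which stand in a narrow column 115.0 kb from the gene start, while no peak lies before 65.9 kb.

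No peak of the list lay on the − strand of the PRRC2B gene body (0 peaks). None of the 189 groups of at least 10 peaks in the list had a peak on the opposite strand within its borders. Those borders enclose far less than a gene body, with a median span of 968 nt over the 188 groups other than the run. The nearest + strand peak before the gene was 154 kb away, at chr9:131219167-131219237, with a log2 fold enrichment of 4.17 and a −log10 p of 9.22. On the 3′ side the nearest + strand peak was 14.3 kb beyond the gene end, at chr9:131514514-131514572, with a log2 fold enrichment of 3.21 and a −log10 p of 8.78. Inside the gene body, the first peak started 65879 nt from the gene start and the last ended 8787 nt before the gene end. Neighbouring peaks inside the gene were up to 15614 nt apart. The distances at the 3′ border, 8787 nt and 14.3 kb, were below that. Those at the 5′ border, 65879 nt and 154 kb, were above it. The 74 peaks made up 12.7% of the 582 + strand peaks of chromosome 9.

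The 20 peaks outside the run fell into 5 places when peaks with at most 500 nt between them were counted as one place. From the 5′ side, the first was a single peak of 67 nt at chr9:131439515-131439581, with a log2 fold enrichment of 3.43 and a −log10 p of 15.5. After 15614 nt without a peak came 4 peaks at chr9:131455196-131455499, which rose in order along the gene from 3.24 through 3.63 and 3.83 to 4.13 on the log2 scale. Their −log10 p did not follow that order, with 21.9, 29.8, 20.2 and 12.1.

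The third place held 8 peaks at chr9:131460756-131461517, covering 79.7% of its 762 nt. In order along the gene, their log2 fold enrichments were 3.44, 3.36, 4.28, 4.23, 4.13, 3.89, 3.84 and 3.15, highest at the third peak and lower at both ends. The −log10 p was 400 for the peak at chr9:131461287-131461355, which was the only peak at that value outside the run. Its neighbours on each side had 53.9 and 74.5, and the other 5 had between 12.6 and 53.0. The log2 fold enrichment of this peak, 3.89, was lower than that of 3 others in the same group.

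The fourth place held 6 peaks at chr9:131463494-131464520 that covered 34.7% of its 1027 nt. It held both the lowest and the highest log2 fold enrichment outside the run. The lowest, 3.03, belonged to the peak at chr9:131463646-131463689, whose −log10 p of 8.13 was also the lowest of the gene. The highest, 4.97 or 31.3-fold, belonged to the peak at chr9:131464408-131464520, which was 113 nt wide with a −log10 p of 50.7. The other 4 peaks of this group had log2 fold enrichments of 4.35, 3.19, 3.71 and 3.91. The fifth place was a single peak of 78 nt at chr9:131476629-131476706, with a log2 fold enrichment of 3.35 and a −log10 p of 23.7. It ended 11884 nt before the run began.

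The weakest PRRC2B peak, at 3.03, ranked 24307 of 24831 and thus lay just above the lowest values listed. No listed peak had a log2 fold enrichment or a −log10 p under 3, so weaker sites of the gene are not part of the list. A stretch or strand without a listed peak is therefore not shown to be without binding.

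The run began with an ordered climb. Its first 9 peaks, at chr9:131488591-131489139, had log2 fold enrichments of 4.09, 4.32, 4.62, 4.73, 4.98, 5.06, 5.27, 5.47 and 5.40, so 7 of 8 steps from one peak to the next went up. The eighth, at chr9:131489077-131489084, was the most enriched of all 74, at 44.3-fold, and with 8 nt also the narrowest. It ranked 326 among the 24831 human peaks by log2 fold enrichment. Except for the first, with 69.0, all peaks of this stretch had a −log10 p of 400. A gap of 358 nt followed, the longest in the run and its only gap over 100 nt.

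After the gap the enrichment started low and rose again. The 19 peaks at chr9:131489498-131490315 had log2 fold enrichments from 3.84 to 5.20 with a median of 4.64. The lowest of the run was the second of them, at chr9:131489577-131489598, with 3.84 and a −log10 p of 42.5, the lowest −log10 p of the run. From chr9:131489705 to chr9:131490094 a total of 9 peaks stayed between 4.42 and 4.75. The enrichment then went from 4.89 to 5.20 at chr9:131490166-131490176, a peak of 11 nt, and fell over the next 3 peaks to 4.99, 4.76 and 4.56.

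A trough of 8 peaks followed at chr9:131490316-131490498. Their log2 fold enrichments were between 3.90 and 4.24, with a median of 4.14, or 17.7-fold, and all 8 had a −log10 p of 400. Enrichment that was low for the run and a −log10 p at the highest value therefore occurred together. The trough was not low in the whole list, whose upper quartile was 4.14.

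The enrichment rose a further time over the 10 peaks at chr9:131490593-131491089. It went from 4.31 through 4.45, 4.55 and 4.98 to 5.36 and 5.39, and then down through 5.12, 5.03 and 5.00 to 4.76. The top of this stretch, at chr9:131490815-131490835, was 41.9-fold enriched (log2 5.39) and ranked 3 of 74 in the gene. All 10 had a −log10 p of 400.

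The 3′ end of the run, 8 peaks at chr9:131491090-131491410, had log2 fold enrichments from 3.96 to 4.81. Of these, 6 had a −log10 p under 400, between 51.8 and 77.4, against 2 of the 46 peaks before them. The last peak of the run, at chr9:131491376-131491410, had a log2 fold enrichment of 3.96. The borders between these stretches were set after the values were seen.

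**Figure D2:**
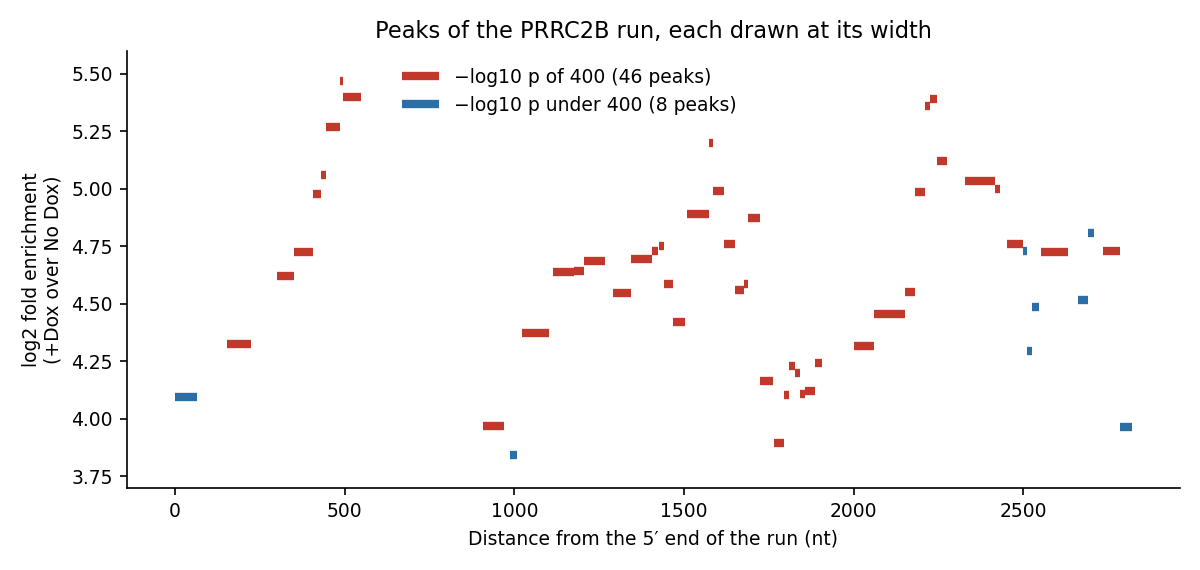
Log2 fold enrichment (+Dox over No Dox, vertical axis) of the 54 peaks of the run against the distance from the 5′ end of the run in nt (horizontal axis), each peak drawn as a bar as long as the peak is wide. Red bars are the 46 peaks with a −log10 p of 400 and blue bars the 8 below it, and the bars reach tops of 5.47, 5.20 and 5.39 with a trough of 3.90 to 4.24 before the last top.

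Peaks with a log2 fold enrichment of at least 5 stood at 3 positions in the run. There were 4 at chr9:131489020-131489139, 1 at chr9:131490166-131490176 and 5 at chr9:131490800-131491020, together 10 of 54. In the whole list 4.33% of peaks reached that value, and in the rest of PRRC2B 0 of 20 did. The tops of the 3 positions were separated by 1081 nt and 638 nt.

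Neighbouring peaks of the run were close in enrichment. Across the 36 pairs that abut with no base between them, the median absolute difference in log2 fold enrichment was 0.16 and the largest 0.77, while across all 1431 pairs of peaks of the run the median was 0.41. Reads were counted by overlap, and a read across a border can count at both peaks, so abutting peaks are not independent measurements. The width of a peak and its enrichment on the log2 scale gave a Pearson's r of -0.09 and a Spearman's rho of -0.13 across the 54 peaks, which share their libraries.

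The run and the rest of the gene overlapped in enrichment. The run had a median log2 fold enrichment of 4.64 (quartiles 4.32 and 4.89, range 3.84 to 5.47), which is 24.9-fold. The rest had a median of 3.77 (quartiles 3.36 and 4.13, range 3.03 to 4.97), which is 13.6-fold, a difference of 0.87 on the log2 scale. Among the peaks that passed a log2 value of 4 with a p no higher than 1e-05, the difference was 0.44. All 54 peaks of the run were above the median of the rest. Of the 20 other peaks, 8 were above the lowest peak of the run and 1 was above its median, and 13 peaks of the run were above the highest of the rest. The median of the whole list was 3.68, which 54 peaks of the run and 11 of the 20 others exceeded.

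A stricter threshold, a log2 value of 4 or more together with a p no higher than 1e-05, was passed by 29.0% of all human peaks. In the rest of PRRC2B 6 of 20 peaks, 30.0%, passed it, a share near that of the list. In the run 50 of 54, 92.6%, passed it, and since the run was chosen from the same comparison nothing is read from this share.

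Most peaks of the run were at the upper limit of the p-value scale. The −log10 p was 400 for 46 of 54, against 1 of 20 in the rest of the gene and 2.05% of the whole list. The list held 510 such peaks, so the run had 9.02% of them with 0.217% of the peaks. The highest −log10 p below 400 in the list was 150, and no value lay between that one and 400, so peaks at 400 cannot be ranked by p. The −log10 p rises with the number of reads at a peak as well as with enrichment, and the part of read depth in the number of peaks called here was not tested.

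Peaks of the run were narrow and adjoining. Their median width was 30.5 nt (quartiles 17.0 and 53.8, range 8 to 91), against 68.5 nt (range 25 to 113) in the rest of the gene and 82.0 nt in the whole list. The median widths of the other 188 groups of at least 10 peaks had a median of 60 nt. They were above that of the run in 181 groups and below it in 7, so peaks this narrow were not particular to PRRC2B. Of the 54 peaks of the run, 52 were narrower than the median of the list. A width under 20 nt was found for 15 of them. The share of the whole list under that limit was not counted, but the lower quartile of its widths was 60 nt. In the run 36 of 54 peaks, 66.7%, directly followed another with no base between them. In the rest of the gene 4 of 20 did, a share near the 24.4% of the whole list. When such peaks were joined, the run came to 18 regions and the rest to 16. The longest joined region of the run was 272 nt, at chr9:131490593-131490864, followed by 254 nt at chr9:131490099-131490352 and 248 nt at chr9:131488892-131489139. The peaks of the run covered 1986 of its 2820 nt, 70.4%, and those of the rest covered 1.08% of the remaining 123742 nt. The coverage of the run was not high among groups of at least 10 peaks. The other 188 had a median coverage of 75.9%, and 121 of them were covered more than the run.

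**Figure D3:**
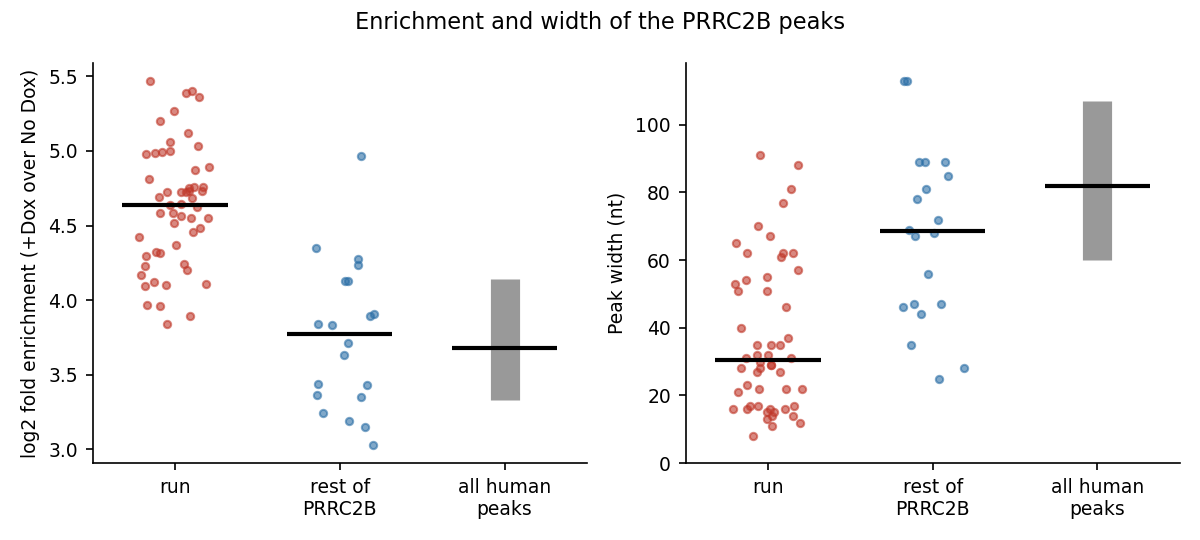
Log2 fold enrichment (+Dox over No Dox, left panel) and width in nt (right panel) of the peaks of the run (red points) and of the rest of PRRC2B (blue points), with their medians as black lines; for all human peaks the grey bar spans the quartiles. The run has medians of 4.64 and 30.5 nt and the rest 3.77 and 68.5 nt.

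The run had the most peaks of any group, but it was not the densest or the most enriched. When peaks of a strand were put in the same group if 500 nt or less parted them, the list had 9787 groups, of which 189 had at least 10 peaks. The run ranked 1 by number of peaks, with 54 against 35 in the next group. The ranks that follow are among these 189 groups. By span it ranked 2, with 2820 nt. By peaks per kb it ranked 10 of 189, with 19.1 against 24.4 in the highest, and by median log2 fold enrichment it ranked 34 of 189, with 4.64 against a median of 4.07 and a highest value of 6.22 over the other 188. Its most enriched peak ranked 46 of 189. By the number of peaks at a −log10 p of 400 it ranked 1, with 46 against 18 in the next. By the share of its peaks at that value, 85.2%, it ranked 5 of 189, and smaller groups were not ranked.

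The groups most like the run in number of peaks were given by position alone. The group at chr5:852466-855560 on the − strand, with 35 peaks, was longer than the run, at 3095 nt, but had a lower median log2 fold enrichment of 4.11, wider peaks with a median of 65.0 nt, and 10 peaks at a −log10 p of 400. After it came 4 groups of 23 peaks. The + strand group at chr10:74112146-74113945 had a median log2 fold enrichment of 4.71, close to that of the run, yet 5 peaks at 400. The + strand group at chr12:110346320-110347843 had a lower median of 3.84 with 15 peaks at 400. At chr22:40966790-40967733, on the + strand, the median was 5.38 in 944 nt, with 24.4 peaks per kb, the highest density of all 189, and 2 peaks at 400. The group at chr20:25285247-25286907 on the + strand had a median of 4.11 and 0 peaks at 400. Narrow peaks with many at 400 were also found in smaller groups. At chr10:71816421-71817373 on the − strand, 22 peaks had a median width of 21 nt, with 14 at 400. At chr1:15428768-15429939 on the + strand, 21 peaks had a median width of 25 nt, with 18 at 400. A group of 19 peaks with a median width of 24 nt had 9 at 400, and a group of 17 peaks with 30 nt had 8. Among groups of 10 peaks narrower than the run, median widths of 12, 25.5 and 27.5 nt went with 10, 7 and 0 peaks at 400.

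**Figure D4:**
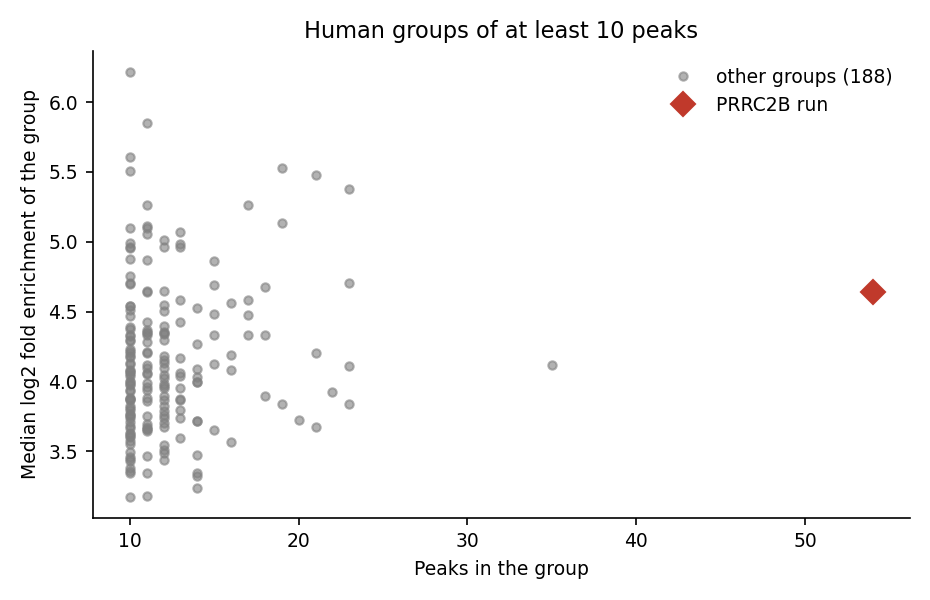
Median log2 fold enrichment (+Dox over No Dox, vertical axis) against the number of peaks (horizontal axis) of the 189 human groups of at least 10 peaks, with grey points for the 188 other groups and a red diamond for the PRRC2B run. The run stands alone on the horizontal axis at 54 peaks, while its median of 4.64 lies within the range of the other groups, 3.18 to 6.22.

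The minigene peaks come from the same 4 libraries and give values beside those of PRRC2B. On the minigene, 7 peaks were listed for +Dox over No Dox, with log2 fold enrichments from 3.14 to 4.13, of which 2 had a −log10 p of 400. The highest of these values was exceeded by 46 of the 54 peaks of the run and by 4 of the 20 other PRRC2B peaks. The upper quartile of the whole human list, 4.14, lay close to that value and was exceeded by the same numbers, 46 and 4. The 4 of 20 is thus a share near that of the list. Since the run was chosen from the list, nothing is read from its 46. The levels of the minigene RNA and of PRRC2B RNA were not measured in these lists, so the values are given side by side only.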

How the data were processed

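Libraries were IP eCLIP libraries of T-REx-293 clone 77-5. The authors trimmed molecular identifiers and adapters, discarded repeat and rRNA reads, mapped with STAR to hg38 plus the minigene, collapsed duplicates with UMI-tools and called peaks with CLIPper. For each deposited peak the −log10 p-value comes from the authors' test on reads, a chi-square test with Yates' correction or, at low numbers, Fisher's exact test. The log2 fold enrichment deposited beside it is the ratio of reads over the peak, scaled by library. The peak lists are labelled IDR, an abbreviation that the sources used here do not explain. These sources also do not give how replicates were merged. The files hold 0 columns for single libraries, so depth and replicate error are unknown and no test was run.

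Members were the + strand rows that overlap the gene body as given for this work. Positions were converted to count from 1. Python 3.11.15, pandas 2.3.3, numpy 2.4.6, scipy 1.17.1 and matplotlib 3.10.9 were used. The grouping and joining of peaks was tested on simulated data. The gene, the run and the lists were chosen with earlier results of these data known. Peaks named singly were the ends of the run and the extremes of enrichment, −log10 p and width in the run and in the rest; the other single peaks, stretches and thresholds inside the run were chosen after their values were seen. No human annotation or genome sequence was used. The ranking among genes, the paralogues, the initiation factors, neighbouring genes and motifs were therefore not analysed here.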

Additional observations from a re-analysis of the deposited data

How the results depend on the processing

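No paired analysis was possible because each peak has a single value for all libraries, which also means that no library could be left out. A p of at most 1e-05 alone removed none of the PRRC2B peaks, so it says nothing about stability. Joining abutting peaks lowered the PRRC2B peaks from 74 to 34, those of the run from 54 to 18 and those of the largest group on the run likewise to 18, with 16 in the rest. The stricter threshold (a log2 value of 4 or more and a p no higher than 1e-05) left 6 of the 20 peaks of the rest and lowered the difference in median between run and rest from 0.87 to 0.44. The ratio of peaks per kb between run and rest, 118, was 366 at this threshold and 49.4 with abutting peaks joined. A higher threshold removes low peaks by construction, and the rest had more of them. The difference was 1.05 with abutting peaks joined and 0.81 with peaks weighted by width. A distance of 100 nt parted the run into 2 groups, of 45 and 9 peaks. The run, or its larger part, ranked 1 by number of peaks in all 5 settings. The next group had 35 peaks as reported, 23 with a distance of 100 nt and 35 with 1000 nt. It had 21 at the stricter threshold and 14 with abutting peaks joined. Since the run was chosen from this list for its number of peaks, its rank as reported was fixed in advance. The other settings reuse the same peaks, so these ranks are a description and not support. The alternatives for PRRC2B among genes and for the sequence of its peaks were not run, since no human annotation or genome sequence was used. The unknown depth limits every value.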

Other observations

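Within the trough of the run, 4 peaks of exactly 16 nt each followed one another with no base between them, at chr9:131490385-131490448, with log2 fold enrichments of 4.10, 4.23, 4.20 and 4.11 and a −log10 p of 400 each. The list holds 6068 pairs of peaks that abut, of which 64 have equal widths. This was the only series of 3 or more abutting peaks of equal width among the 24831 human peaks. It was noticed after the values were seen, and nothing was tested on it.

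All 510 human peaks with a −log10 p of 400 lay in 147 groups, of which 64 had at least 10 peaks. The other 125 groups of at least 10 peaks had none, and the median over the 188 groups of that size beside the PRRC2B run was 0.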
